A study of Mus musculus with 21 samples.

Results

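The comparison described here sets 2 Setd2 knockout (KO) lines of C2C12, a mouse myoblast line that fuses into muscle cells in culture, against wild-type (WT) C2C12 cells at day 0. H3K36me3 was mapped by chromatin immunoprecipitation followed by sequencing (ChIP-seq), and the deposited data are lists of broad peaks, 1 list per library. The day 0 lists are 4 of the 20 peak lists in the series, which names 21 libraries with its input: WT replicates 1 and 2, and 1 library each of KO line 1 and KO line 2. The other lists hold the same WT cells and KO lines at days 1 and 5 in control or methionine-restricted medium, and they are used here only for the spread between WT replicates and to look again at genes found at day 0. The labels give the day 0 groups a genotype and a day but no medium. They do not say how Setd2 was disrupted, whether a KO line is 1 clone, or whether the WT replicates are separate cultures, so the p-values below measure the spread between these libraries, which may be technical. The peak names inside the KO lists call the libraries replicates 1 and 2 of 1 group, whereas the labels call them lines 1 and 2, and the labels were followed.

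SETD2 is the methyltransferase that places most trimethylation on lysine 36 of histone H3. It travels with elongating RNA polymerase II, so the mark lies over the bodies of transcribed genes, thin at the promoter and dense towards the 3′ end. NSD family enzymes and ASH1L mainly place the mono- and dimethyl forms, and proteins with PWWP or chromodomain folds, such as PSIP1, MORF4L1 and MSH6, bind the trimethylated tail in splicing, chromatin repair and deacetylation.

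Both KO lists were far shorter than the WT lists, and line 2 far shorter than line 1. WT replicate 1 had 73037 peaks over 178.6 Mb and WT replicate 2 had 86381 over 159.2 Mb. KO line 1 had 23529 peaks over 17.7 Mb, which is 10.5% of the WT mean length. KO line 2 had 3625 peaks over 1.88 Mb, or 1.12% of it. On the log2 scale, covered length was below the WT mean by 3.25 in line 1 and by 6.48 in line 2, beside an SD of 0.117 between the WT replicates, and the lines lay 3.23 apart. The median peak was 909 and 791 bp wide in WT, 484 bp in line 1 and 401 bp in line 2. The widest was 104.5 kb in both WT lists (over Ubr4), 33.7 kb in line 1 (over Myh9) and 8.33 kb in line 2. With 2 libraries on each side the two-sided exact permutation test cannot go below p = 0.33, and it gave that value for covered length, number of peaks, width and marked genes, with no change after Benjamini-Hochberg (BH) adjustment over the 4 tests. Peak lists carry no read depth. Depth and loss of the mark cannot be told apart for a library with few peaks, no counting interval can be given, and a peak's reach depends on the threshold of the peak caller.

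For each of 19304 protein-coding genes of at least 2 kb, the percent of the gene body inside merged peaks was computed, called cover below, and a gene with at least 50% is called marked. The 2 WT libraries had 5462 and 5038 marked genes. KO line 1 had 204, and KO line 2 had 0. Some cover was present on 10376 and 10497 genes in WT, on 5128 in line 1 and on 482 in line 2. The Setd2 gene itself (chr9:110532500-110618633, GRCm38) had cover of 78.1% and 65.6% in the WT libraries, 3.16% in line 1 and 0 in line 2. Both KO values lay below both WT values, although cover of this gene reports the mark on it and not the protein or the lesion. The myoblast label was checked on 8 marker genes. In WT, 6 of them were marked in both libraries, among them Myod1 (55.1% and 50.1%), Cdh15, Des and Itga7. In the KO libraries these 8 genes had cover of 0 to 10.3% in line 1 and 0 in line 2, so the label could not be checked there by cover.

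Cover was tested per gene with limma in 8898 genes whose mean over the 4 day 0 libraries was at least 5%. Each KO library stands alone in its group and was assumed to vary like the 5 pairs of WT libraries in the fit. In KO line 1, 8585 genes were lower than in WT (96.5% of those tested) and 20 were higher (0.225%). In KO line 2, 8676 were lower (97.5%) and 3 were higher (0.0337%). The median difference over all tested genes was −50.7 points of cover in line 1 and −58.0 in line 2. Of the tested genes 50.7% were at 0 in line 1 and 98.7% were at 0 in line 2. Taken against each other, line 1 was above line 2 at 842 genes (9.46%) and below it at 0, with 1338 genes at an unadjusted p under 0.05 in either direction in limma. The counts depend on the processing: line 1 was above line 2 at 215 genes with a −log10 q of at least 3, 551 with the 4 day 0 libraries alone and 2217 on the arcsine square root scale, and it was below line 2 at 125 genes with no filter on low cover.

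**Figure D1:**
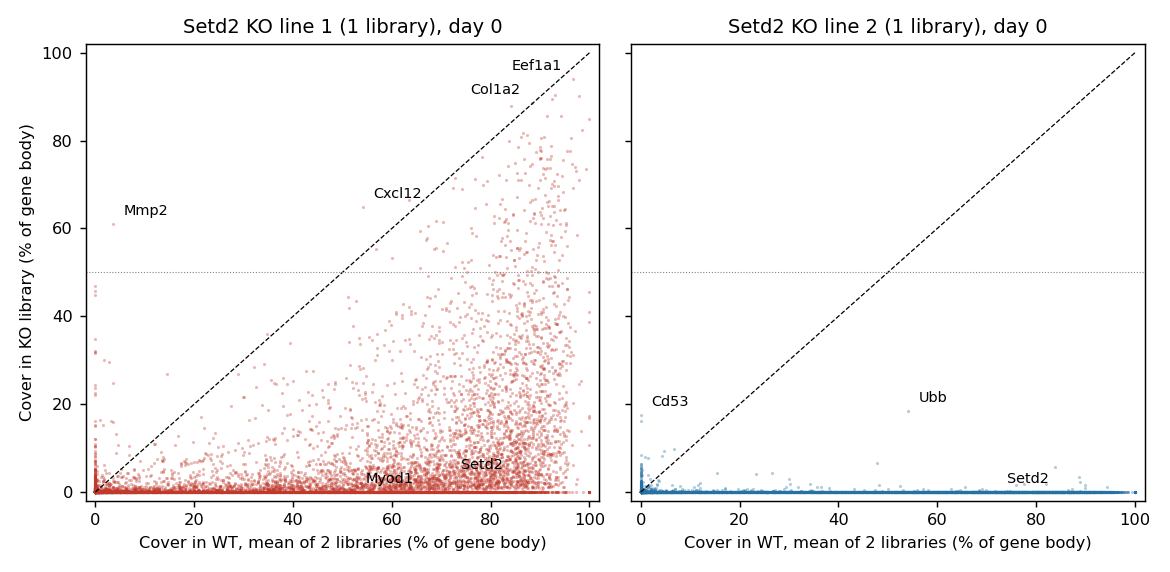
Cover of 19304 protein-coding genes in KO line 1 (left) and KO line 2 (right), as percent of the gene body inside peaks, against the mean of the 2 WT libraries at day 0. Each point is a gene, the dashed line marks equal cover and the dotted line 50%. Points of line 1 mostly fan out below the dashed line, up to Eef1a1 at 93.9%. Some lie above it, such as Mmp2 at 61.0% against a WT mean of 3.53%. Those of line 2 stay at or below 18.5% (Ubb).

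Which genes kept the mark was asked among the 4769 genes that were marked in both WT libraries. In KO line 1, 203 of them stayed at 50% or more (4.26%, called kept here), 1310 had 10 to 50% (partly kept), 1548 had less than 10% but some, and 1708 were listed at 0 (35.8%). In KO line 2 none of the 4769 reached 10%, 27 had a trace and 4742 were listed at 0. The choice of the kept genes used their line 1 cover, so the following values describe them and test nothing. Their cover in line 1 ran from 50.02% to 93.9% with a median of 63.4%, against a WT median of 88.4%, and 192 of the 203 were below both WT libraries. Kept was therefore mostly partial. Limma called 164 of the 203 lower than WT, made no call on 38 and called 1, Cxcl12, higher, a call that most alternatives lost. Over all tested genes 96.5% were called lower. The 203 were chosen by the same line 1 cover, so these calls are no support. Of the 203, 202 were at 0 in line 2. Just inside the 50% border lay Mmp14 (50.02%), Hsph1 (50.1%) and Tpm1 (50.1%), and just outside it Rps6ka4 (49.9%), Anxa2 (49.8%) and Snw1 (49.6%). The border cuts a continuous range.

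The genes with the highest cover in KO line 1 were Eef1a1, Slc38a2, Fn1, Csf1, Col1a2, Aebp1, Scd2, Rpl3, Rsc1a1 and Vim. Eef1a1, which carries aminoacyl-tRNA to the ribosome, had 96.6% and 96.7% in WT, 93.9% in line 1 and 0 in line 2. Slc38a2, an amino acid transporter, had 93.0% and 93.1% in WT, 90.3% in line 1 and 0 in line 2. Line 1 was thus within a few points of WT at both genes, while line 2 had no peak on them. Fn1, the matrix protein fibronectin, had 98.0% and 97.8% in WT, 90.1% in line 1 and 0 in line 2. Col1a2, a chain of type I collagen, had 92.6% and 84.1% in WT, 88.6% in line 1 and 0 in line 2. Vim, the intermediate filament vimentin, had 98.2% and 98.9% in WT, 82.4% in line 1 and 0 in line 2. Line 1 lay below both WT libraries at Fn1 and Vim and between them at Col1a2. Aebp1, a secreted collagen-binding protein, was above both WT libraries (83.8% and 84.5%) at 87.9% in line 1. For 7 of these 10 genes limma made no call between line 1 and WT, with differences from −8.57 points (Rpl3, SE 5.66, adjusted p = 0.169) to 3.78 points (Aebp1, SE 6.25, adjusted p = 0.562). With the spread of the 4 day 0 libraries alone, which leaves 1 residual degree of freedom, 6 of these 7 were called, Aebp1 higher and the other 5 lower, and Col1a2 was not. Fn1 (−7.81 points, SE 1.32, limma adjusted p = 0.000472), Rsc1a1 (−15.0, SE 1.14) and Vim (−16.1, SE 5.25) were called lower. Rsc1a1 hung on the processing: with a −log10 q of at least 3 it differed by −100 points, with line 1 at 0, and with peaks up to 1 kb apart merged by 0. At all 10 genes line 2 was at 0. The 10 were chosen by their line 1 cover, so these differences describe them, and the contrast of the lines is no test there. Of the 10, Rsc1a1 lies wholly inside another protein-coding gene and Csf1 is wholly overlapped by a non-coding gene. Eef1a1 and Rpl3 each have 2 annotated pseudogenes that carry their symbol, and copies under other names were not counted. Cover at these genes may thus belong to a neighbour or share reads with a copy.

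In covered length the leading genes of KO line 1 were Fn1 (61.1 kb), Col5a1 (60.4 kb), Nfix (59.3 kb), Asap1 (59.2 kb) and Lrp1 (57.4 kb). Col5a1, a fibrillar collagen that seeds type I fibrils, fell from 88.7% and 87.8% in WT to 39.4% in line 1, and was at 0 in line 2. Nfix, a transcription factor of the fetal muscle programme, had 65.5% and 75.1% in WT, 61.5% in line 1 and 0 in line 2, and limma made no call in line 1 (−8.84 points, SE 5.22, adjusted p = 0.129). It was called lower without WT replicate 1 (−13.7 points, limma adjusted p = 0.0318) and with a −log10 q of at least 3 (−29.1 points, limma adjusted p = 0.0104). Lrp1, an endocytic receptor, fell from 96.8% and 96.7% to 69.1%. Asap1 was below WT in both lines, and at 19.98% against 0.250% the lines were not called apart (limma adjusted p = 0.0699).

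The promoters of 3 of the leading genes are shown because no peak reached them: the 250 bases before the transcription start had cover of 0 in all 4 libraries, although the gene bodies had 82.4% to 98.9% in WT and line 1. Sequences are from RefSeq, assembly GRCm38.p6, 5′ to 3′ in the direction of the gene. Capitals mark the TATA box core TATAAA, the CCAAT box and the GC box GGGCGG, each searched on both strands, so that a reverse match of the last reads CCGCCC and of the second ATTGG. No marked motif overlaps another in these windows. They are at chr9:78481725-78481974 (minus strand, Eef1a1), chr6:4505368-4505617 (plus strand, Col1a2) and chr2:13574061-13574310 (plus strand, Vim).
Eef1a1: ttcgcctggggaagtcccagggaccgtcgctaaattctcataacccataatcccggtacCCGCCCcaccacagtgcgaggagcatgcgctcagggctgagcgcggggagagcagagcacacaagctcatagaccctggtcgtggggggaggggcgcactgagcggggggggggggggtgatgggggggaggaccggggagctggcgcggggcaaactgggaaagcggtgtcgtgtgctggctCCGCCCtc
Col1a2: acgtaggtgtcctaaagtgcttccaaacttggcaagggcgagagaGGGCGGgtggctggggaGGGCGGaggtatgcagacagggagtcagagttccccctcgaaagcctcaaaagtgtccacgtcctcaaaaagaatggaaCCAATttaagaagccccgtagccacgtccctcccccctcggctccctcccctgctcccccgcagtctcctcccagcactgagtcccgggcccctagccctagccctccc
Vim: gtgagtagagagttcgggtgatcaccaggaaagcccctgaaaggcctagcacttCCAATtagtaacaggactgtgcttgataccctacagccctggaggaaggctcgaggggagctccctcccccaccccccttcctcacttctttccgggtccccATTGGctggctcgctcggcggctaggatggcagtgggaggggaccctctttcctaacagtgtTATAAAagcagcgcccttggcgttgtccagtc
Vim holds a TATA box core and a CCAAT box on each strand, Col1a2 a CCAAT box and 2 GC boxes, and Eef1a1 2 reverse GC boxes. Of all 32851 promoter windows, 12.4% hold a TATA box core, 33.8% a CCAAT box and 32.7% a GC box. Among 195 windows of 163 kept genes the shares were 8.21%, 42.1% and 67.7%, and among 1644 windows of WT-marked genes at 0 in line 1 they were 5.11%, 37.3% and 57.5%. Partly kept genes had 5.54%, 35.7% and 64.6%, and genes with a trace 5.22%, 35.0% and 64.5%. The CCAAT share thus did not fall step by step from kept genes to genes at 0. Some cover fell on 3.25% and 3.58% of all windows in WT, on 0.359% in line 1 and on 0.0639% in line 2.

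The kept genes had higher fold enrichment in WT than the others, a property the choice did not use. The authors' fold enrichment was averaged over the peak bases on each gene. In WT replicate 1 its median was 5.74 at kept genes, 4.55 at partly kept genes, 3.86 at genes with a trace and 3.56 at genes at 0 in line 1. In WT replicate 2 the medians were 6.09, 5.08, 4.24 and 4.09, in the same order. Of the 954 genes of the 4769 with the highest fold enrichment in WT replicate 1, 16.8% were kept in line 1 and 9.85% were at 0. Of the 954 lowest, 0.629% were kept and 69.5% were at 0. As a description over these genes, Spearman's rho of line 1 cover with WT fold enrichment was 0.60 for replicate 1 and 0.51 for replicate 2, with WT cover 0.40 and with gene length 0.094. Genes of 1 library share its depth and threshold, so these are not independent points. Short genes were more often either kept or empty: at 2 to 5 kb 5.99% were kept and 62.0% were at 0, and at 100 kb or more 0.855% were kept and 9.40% were at 0.

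To set line 1 beside WT lists of its own length, each WT list was shortened to its strongest peaks. At 17.7 Mb the shortened WT lists shared 68.7% of their bases with each other, and line 1 shared 33.5% and 31.8% of its bases with them. Of the 204 marked genes of line 1, 159 (77.9%) and 145 (71.1%) were marked in the shortened lists, which is 19.04% and 16.4% of the 835 and 884 genes marked there. Line 1 and the shortened lists thus met on most of the marked genes of line 1 while most strong WT genes were below 50% in line 1. At 1.88 Mb, line 2 shared 0.111% and 0.0861% of its bases with WT.

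Along the gene body the cover of KO line 1 lay further towards the middle and 3′ part than that of WT. Strand was known for 163 kept genes, which were cut into 10 equal parts from 5′ to 3′. In WT replicate 1 part 1 had a mean cover of 18.6%, part 2 had 73.8%, and parts 5 to 10 had 98.1% to 99.7%. In line 1 part 1 had 3.48%, part 2 19.6%, part 3 45.6%, part 5 86.0% and part 7 92.7%, and part 10 was back at 61.6%. Line 1 therefore came close to WT in parts 6 to 8 and stayed short of it at both ends. Over all 3874 WT-marked genes with a strand, line 1 rose from 0.525% in part 1 to 17.3% in part 8 and had 12.3% in part 10, while WT replicate 1 rose from 15.3% to 94.0% in part 9. In line 2 no part exceeded 0.00982%.

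**Figure D2:**
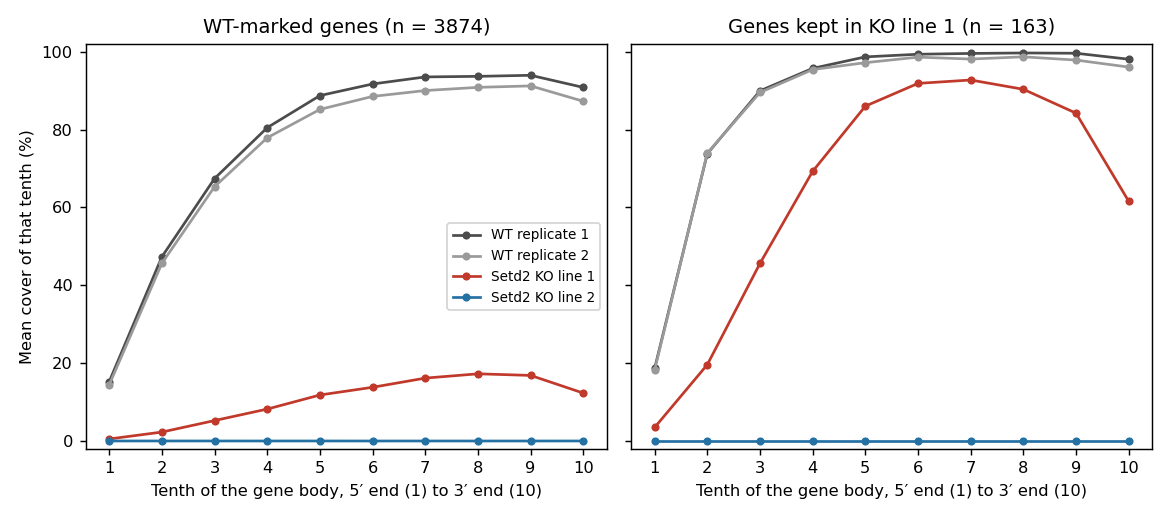
Mean cover (percent) of each of 10 equal parts of the gene body from the 5′ end (1) to the 3′ end (10), for 3874 WT-marked genes with a known strand (left) and the 163 of them kept in KO line 1 (right); 1 line per library at day 0. On the right line 1 peaks at 92.7% in part 7 and ends at 61.6%, WT stays above 96% from part 5 on, and line 2 is at 0 throughout.

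Gene lists by function were read the same way, as counts of kept genes among WT-marked members, beside 4.26% for all WT-marked genes. The lists are of unequal length and fold enrichment, and no list was tested. In line 2 all tested members of the 19 lists were called lower than WT except 1 in each of 4 lists (97.5% of all tested genes were), and the highest cover of any WT-marked member there was 1.61% (Acta2).

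Translation factors (53.8%) and chaperones (45.0%) had the highest kept shares among lists with at least 6 WT-marked genes, followed by splicing factors (42.9%) and cytosolic ribosomal proteins (36.1%). Of 13 WT-marked translation factors 7 were kept, among them Eif4g2 (95.2% and 97.7% in WT, 74.7% in line 1) and Pabpc1 (86.5% and 84.2%, 72.5%), which binds poly(A) tails. Eef1b2, a subunit of the same elongation factor complex as Eef1g, was at 0 in line 1 from 79.6% and 76.9%. Of 36 cytosolic ribosomal protein genes 13 were kept and 21 partly kept, with Rpl3 (93.7% and 94.6%, 85.6%) and Rpl13a (87.4% and 83.5%, 78.4%) highest, while Rps18 and Rps20 went from about as high in WT (91.9% and 93.9%, 89.2% and 93.7%) to 0. Ribosomal protein genes have many processed copies, and Rpl3, Rpl13a and Rps18 have annotated ones that carry their symbol, so their cover is uncertain. Copies under other names were not counted. Of 20 chaperone genes 9 were kept, led by the endoplasmic reticulum chaperone Hsp90b1 (94.6% and 96.4%, 77.7%). In limma 34 of 38 tested ribosomal genes, 12 of 13 translation factors and 20 of 20 chaperones were lower in line 1, with median differences of −41.3, −33.1 and −41.2 points, against 96.5% lower and a median of −50.7 for all tested genes. Those counts are near the share of all genes. Line 1 was called above line 2 at 24 of the 38, 10 of the 13 and 18 of the 20, against 9.46% of all tested genes. Line 2 was at 0 at all members of these lists, so this contrast restates the cover of line 1. Their WT-marked members had median WT fold enrichments of 5.47 to 5.99 in replicate 1 and 5.60 to 6.80 in replicate 2. All WT-marked genes had 3.92 and 4.41, so the base is unlike, and the part of function was not tested.

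The kept shares of splicing, cytoskeleton and glycolysis genes were 42.9%, 33.3% and 28.6%. Of 21 splicing factor genes 9 were kept, among them the helicase Ddx17 (92.8% and 91.6% in WT, 78.7% in line 1) and Hnrnpa1 (85.02% and 81.3%, 71.0%), and Hnrnpd, an AU-rich element binding protein, fell to 1.44% from 87.3% and 62.6%. Of 27 cytoskeleton and adhesion genes 9 were kept. Tln1, which links integrins to actin, had 91.3% and 92.9% in WT and 76.5% in line 1. Flna, an actin crosslinker, had 85.01% and 84.8% in WT and 74.9% in line 1. Members of 1 family parted: Tpm4 had 63.4% and Tpm2 9.37% in line 1, from 89.97% and 87.6% and from 85.1% and 83.0% in WT. In glycolysis 4 of 14 were kept, Eno1 highest (90.5% and 91.2%, 80.8%), then Pkm, Ldha and Tpi1, while Pfkp, an isoform of the phosphofructokinase step, had 0.480%.

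Extracellular matrix genes split widely. Of 7 WT-marked collagen chain genes 2 were kept, Col1a2 and Col3a1 (93.8% and 78.5% in WT, 80.9% in line 1), both fibrillar collagens. Col4a1 and Col4a2, the basement membrane chains that share 1 bidirectional promoter, were at 0 in line 1 from 56.3% and 58.7% and from 52.1% and 56.4%. Col6a1 was above both WT libraries (9.24% and 19.6%) at 26.9%, and limma made no call (12.5 points, SE 11.6, adjusted p = 0.316). Of 19 other matrix genes 6 were kept, namely Fn1, Thbs1, Sparc, Lox, Serpinh1 and Hspg2. Lox, which crosslinks collagen, had 78.3% and 67.1% in WT and 71.6% in line 1, between the WT libraries. Thbs1 had 75.5% in line 1 while its paralog Thbs2 had 3.12%, from 93.4% and 96.1% and from 88.0% and 88.1% in WT. Lamb1, a laminin chain, fell from 96.3% and 96.9% to 6.11%. Limma called 7 of 11 collagen genes and 23 of 24 other matrix genes lower in line 1, with median differences of −31.2 and −49.7 points, against 96.5% and −50.7 for all tested genes.

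Lists of muscle identity and of the H3K36 machinery held no kept gene, which in lists this short is close to the 4.26% of all WT-marked genes and is no result about them. Of 7 WT-marked myogenic genes 0 were kept: Cdh15, an adhesion molecule of muscle precursors, had 87.4% and 94.1% in WT, and Des, the muscle intermediate filament, 83.9% and 89.1%. Both were at 0 in both KO lines, as was Myod1. Mef2d had 20.9% in line 1 and Chrna1 4.13%. All 11 tested myogenic genes were called lower in line 1, with a median of −52.6 points, which is close to the 96.5% and −50.7 of all tested genes. Of 6 WT-marked H3K36 methyltransferase genes 0 were kept, with 2.03% (Ash1l) to 5.34% (Nsd2) in line 1, and Kdm4a, an H3K36me3 demethylase, had 18.8% from 89.3% and 88.4%. Among 10 genes of H3K36me3 readers the highest in line 1 was Brd1 (91.7% and 94.6%, 42.3%), and among 15 elongation genes it was Polr2a (86.1% and 78.7%, 49.5%), the largest subunit of RNA polymerase II. Of 28 cell cycle genes 2 were kept, Top2a (96.9% and 95.8%, 80.6%) and Cdk1 (93.6% and 94.4%, 64.2%), and 17 were partly kept. Of 19 amino acid transport and ATF4 response genes 2 were kept, Slc38a2 and Ddit3, of 12 immediate early genes 1, Fosl2, and of 6 repair genes 0. In the sarcomere list 16 of 21 genes were at 0 in both WT libraries, and Ttn (81.5% and 61.2%) was at 0 in both KO lines. In the list of long genes 0 of 19 were marked in WT. Eef2, Actg1, P4hb, Rrm2 and Atf4 were listed at 0 in all 20 libraries, so they say nothing on the KO lines. Peaks over such genes may be among data not analysed here, and any other gene listed at 0 shares that limit.

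**Figure D3:**
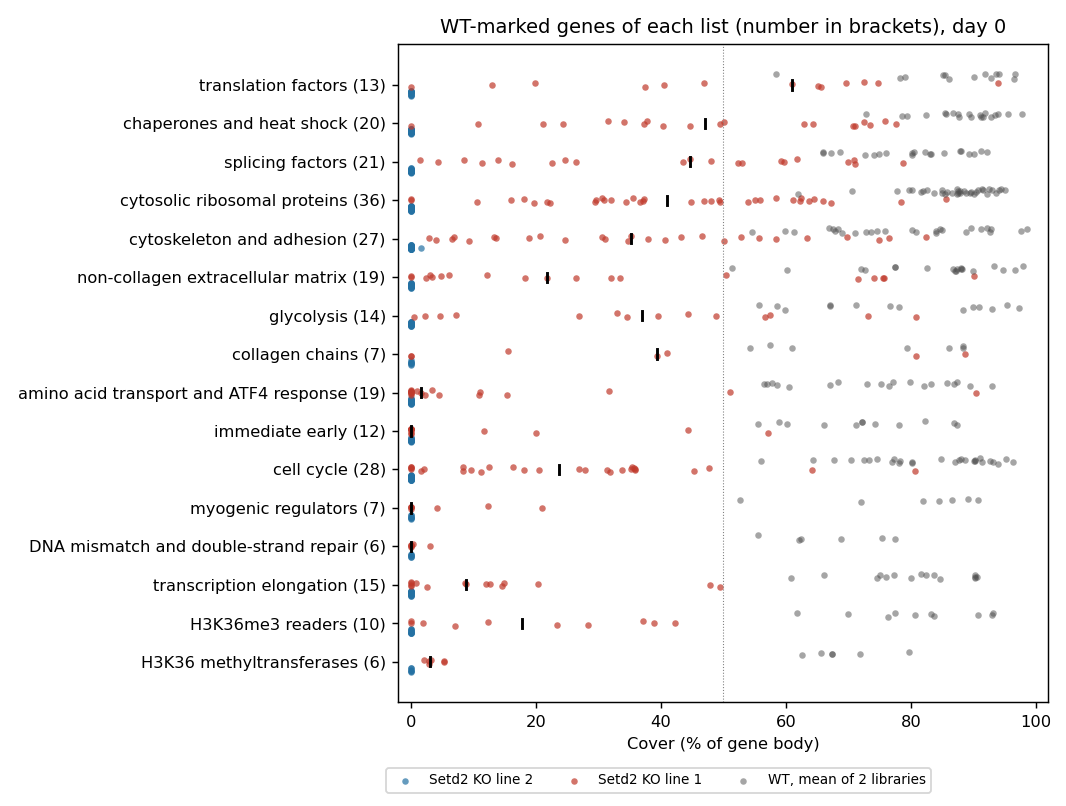
Cover (percent of the gene body) of the WT-marked genes of each list with at least 6 of them, at day 0: WT mean of 2 libraries (grey), KO line 1 (red, black bar at the median) and KO line 2 (blue), 1 point per gene. Medians of line 1 run from 0 (myogenic regulators, immediate early genes and repair genes) to 60.9% (translation factors), and line 2 is at or near 0 in each list.

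Genes of other cell types were looked for because some kept genes belong to matrix-producing cells. The fibroblast markers Dcn, Lum and Thy1 were at 0 in all 4 libraries and Pdgfra had 1.22% and 3.23% in WT and 0 in both KO lines. Col1a1 had 55.4% and 66.4% in WT, 41.0% in line 1 and 0 in line 2. Summed over the 6 fibroblast markers, cover was 149.2 and 153.7 points in WT, 129.6 in line 1 and 0 in line 2, all of it in line 1 from the 2 collagens. The 6 haematopoietic markers were at 0 in both KO lines, as were the endothelial, hepatocyte and pluripotent markers that were scored. Epithelial and neuronal markers had at most 0.842% there. Zeros were frequent in the KO libraries (50.7% of tested genes in line 1, 98.7% in line 2), so they do not check the label. In WT the neuronal markers summed to 115.2 and 93.0 points, with 1 marked in both libraries, and the haematopoietic ones to 10.2 and 10.1. Hepatocyte markers summed to 4.93 and 7.68 points in WT, and epithelial, endothelial and pluripotent markers to 0.

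At the other end, 368 genes had at least 90% cover in both WT libraries, and 35 of them were at 0 in both KO lines, with a median length of 5.14 kb. Of all 4769 WT-marked genes 35.8% were at 0 in line 1 and 99.4% in line 2. Zeros were thus no more frequent at these 368 genes than at all WT-marked genes. The longest were Mcm3ap, Ndc80, Igfbp2, Afg3l1 and Brd9. Mcm3ap, a factor of mRNA export (chr10:76468902-76515859, GRCm38), had 94.7% and 92.2% in WT. Ndc80, a kinetochore protein, had 94.4% and 92.3%. Igfbp2, a binding protein of insulin-like growth factors, had 92.2% and 94.9%. Line 1 covered other genes of such WT cover nearly whole, but had no peak on these. Mcm3ap was at 0 in all 4 later libraries of line 1 too, while the 8 later WT libraries had 90.2% to 95.0%. Igfbp2 and Brd9 were at 0 there as well, with 1.94% to 81.3% and 48.5% to 86.8% in later WT libraries, so WT itself was low at Igfbp2 in places. Ndc80 had at most 0.992% and Afg3l1 at most 4.68% in later line 1 libraries, against 2.24% to 92.0% and 75.0% to 90.9% in WT.

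The kept genes were looked up in the later libraries of the same KO lines, which did not enter the choice but are the same cells. Their median cover in line 1 was 55.4% in the day 1 control library, where 126 of the 203 were marked, and 0 in the methionine-restricted one. On day 5 it was 86.4% with control medium (196 marked) and 71.8% with restriction (175 marked). Over all WT-marked genes the medians were 0, 0, 28.3% and 2.73%. In line 2 none of the WT-marked genes was marked in any later library.

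Cover above WT was called at 20 genes in line 1 (0.225% of those tested) and 3 in line 2. These counts rest on the filter on low cover: without it they were 387 and 209. Of the 20 genes 12 were at 0 in both WT libraries, and 19, all but Cxcl12, had a WT mean under 5% and passed the filter only through KO cover. They had to differ, so their values describe them and their calls support nothing. Mmp2, a matrix metalloproteinase that cleaves type IV collagen and gelatin (chr8:92827290-92853421, GRCm38), had 1.52% and 5.54% in WT, 61.0% in line 1 and 0 in line 2. Its difference from WT, 57.5 points, was the largest of the 20, and it was the single gene marked in line 1 but in neither WT library. In later line 1 libraries Mmp2 had 73.1% (day 1, control), 4.07% (day 1, restricted), 96.0% (day 5, control) and 96.3% (day 5, restricted), and in later WT libraries 0 to 40.3%. H2-M3, a non-classical MHC class I gene, had 0 in both WT libraries and in line 2 and 47.0% in line 1. Csf2rb2 (45.7% in line 1) and Csf2rb (45.0% in line 1 and 2.23% in line 2), subunits of cytokine receptors of blood cells, were at 0 in WT. Ncf4 was at 0 in WT and 22.0% in line 1. These 3 genes are neighbours, between positions 78244164 and 78351001 of chromosome 15, and all had at most 18.05% in the later line 1 libraries. Hs3st1, a heparan sulfate sulfotransferase, had 34.8% in line 1 and 34.9% to 88.6% in its later libraries other than restricted day 1, and was at 0 in all WT libraries. Of the 20 genes 14 had some cover in the day 1 control library of line 1 and 5 in the restricted one, where 3972 and 328 of all 19304 genes had some. On day 5 the counts were 18 (control) and 20 (restricted), beside 8115 and 6132 of all genes. Cxcl12, a chemokine, was the single gene called higher in line 1 and lower in line 2: 54.0% and 54.2% in WT, 65.0% in line 1 and 0 in line 2. Its call as higher was lost in 7 of 9 alternatives, among them without either WT replicate (10.7 and 10.9 points, limma adjusted p = 0.061 and 0.0554). The difference was 1.29 points with nearby peaks merged (limma adjusted p = 0.857) and 34.9 points when peaks needed a −log10 q of 3 or more (limma adjusted p = 0.00204), and line 2 was lower in all 9.

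KO line 2 was higher than WT at 3 genes (0.0337% of those tested), 2210010C04Rik, Marchf11 and Vmn2r85, all 3 also higher in line 1. All 3 had a WT mean under 5% and passed the filter only through KO cover, so these calls support nothing either. 2210010C04Rik had 0 in both WT libraries, 16.2% in line 1 and 16.3% in line 2, and is wholly overlapped by another gene. Calls in line 2 were fragile: with the spread taken from the 4 day 0 libraries alone, 1 gene was called, and Marchf11 (7.22 points) and Vmn2r85 (6.40 points) had adjusted p = 0.183 and 0.235. The highest cover in line 2 was on Ubb, a polyubiquitin gene, with 64.5% and 43.9% in WT, 24.9% in line 1 and 18.5% in line 2. Cd53, a tetraspanin of blood cells, had 0 in WT, 1.57% in line 1 and 17.6% in line 2. The genes with the most covered length in line 2 were Cdh18 (21.9 kb), Atp8b4 (15.1 kb), Grik2 (13.1 kb), Cdh10 (10.2 kb) and Cdh12 (8.85 kb). That was 0.77% to 8.38% of their bodies, and with Cd53 they fell under the 5% filter and were not tested. Cdh10, Cdh12 and Cdh18 are cadherins on chromosome 15, 197.3 to 1149.5 kb long, with WT cover of at most 0.665%. Cdh10 was at 0 in line 1 on all days, and in line 2 it had 10.2% (day 1) and 8.80% (day 5) with control medium, and 0 (day 1) and 15.4% (day 5) with restriction. Of the 482 genes with any cover in line 2, 232 were at 0 in both WT libraries (48.1%), near the 44.6% of all 19304 genes. The median length of the 482 was 161.9 kb against 21.3 kb for all genes.

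Where the remaining peaks lay differed between the lines. Of the covered bases of line 1, 80.8% were inside peaks of either WT library, and of those of line 2, 3.80% were, while WT peaks take up 7.31% of the span of the gene table. The line 2 share was not below that of the span in all settings: with a −log10 q of at least 3 in both it was 7.01% against 5.70%, and with peaks of both WT libraries 1.84% against 5.10%. Bases inside both a WT peak and a gene made up 78.3% of line 1 and 2.68% of line 2, and bases outside both 9.92% and 65.0%. Genes of any kind take up 45.8% of that span, and 33.8% of line 2 lay in them. Read from the WT side, line 1 held 9.94% of the bases shared by the WT libraries and line 2 held 0.0250%.

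**Figure D4:**
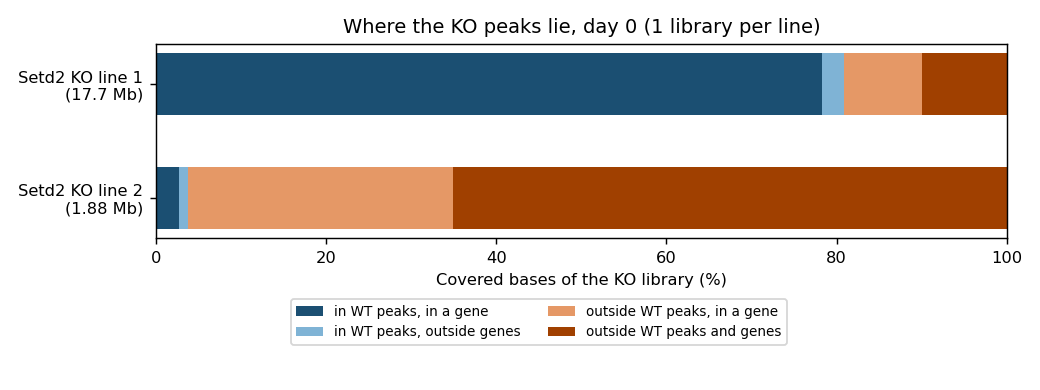
Covered bases of each KO library at day 0 (percent, 1 bar per line, total length in brackets) split by whether they lie in a peak of either WT library and in any annotated gene. Line 1 lies mostly in WT peaks within genes (78.3%), and line 2 mostly outside both (65.0%).

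Peaks that touched no WT peak numbered 6087 in line 1 (25.9%) and 3430 in line 2 (94.6%). Of these, 759 of line 1 and 768 of line 2 met a peak of the other line, which is 12.5% and 22.4%. Of the peaks that did touch WT peaks, 0.717% of line 1 and 63.6% of the 195 of line 2 met the other line. Meeting was thus more frequent outside WT peaks in line 1 and less frequent there in line 2. The 2 shared ones with the highest fold in either line were a 257 bp peak within Cpa6 (chr1:10506951-10507207, fold 8.98 in line 2 and 5.11 in line 1) and a 477 bp peak 12.9 kb from Erbb4 (chr1:69121460-69121936, 8.78 and 6.30), positions on GRCm38. Peaks found in the KO lines but in neither WT library at day 0 were in part met again in later libraries. Of the 3430 of line 2, 22.8% to 35.3% were met in each of the 6 later KO libraries other than the restricted day 1 pair, where 2.54% and 1.14% were, and 0.379% to 1.52% in the 8 later WT libraries. Of the 6087 of line 1, 28.4% to 44.9% were met in 3 later libraries of line 1 and 11.8% to 15.6% in 3 of line 2, 2.37% and 0.575% in the restricted day 1 pair, and 0.838% to 4.44% in the later WT libraries. Those WT lists cover 109.9 to 183.5 Mb, against 2.72 to 74.1 Mb in the 6 KO lists.

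A small set of narrow peaks stood in all 4 day 0 lists. It held 69 of the 3625 peaks of line 2 (1.90%), with a median width of 434 bp, and 22 of them were met in all 20 libraries. The highest was chr1:113904044-113904494 (GRCm38), in no protein-coding gene, with an authors' fold enrichment of 6.87 and 5.40 in WT, 13.5 in line 1 and 17.1 in line 2, which is the strongest peak of both KO lists. The next was chr8:7650436-7650874, also outside protein-coding genes, with 7.84 and 7.99 in WT, 10.1 in line 1 and 12.6 in line 2. Of the 69, line 2 was above both WT libraries in 51 and line 1 in 44. The fold enrichment of separate lists has no common scale, and the input library was not used here. The wide peak over Plec, a cytoskeletal linker, was the strongest in both WT lists at 9.63 and 13.7, stood at 9.88 in line 1 and had no counterpart in line 2.

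**Figure D5:**
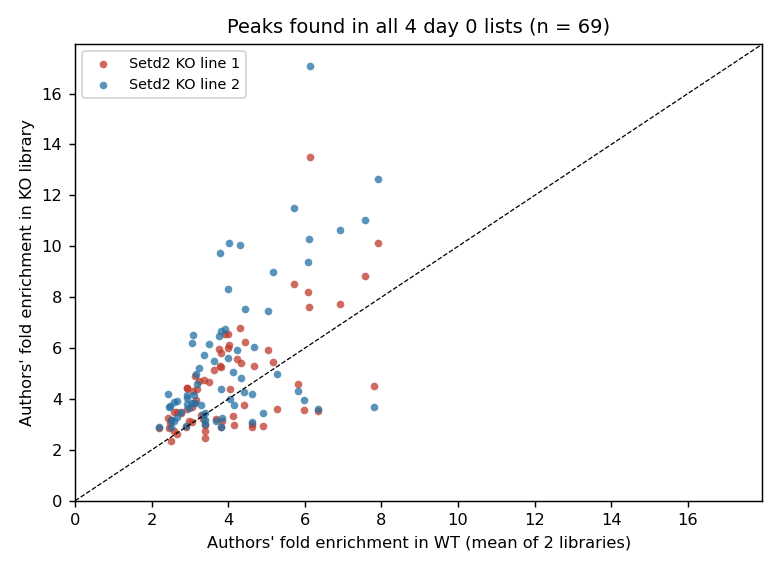
Authors' fold enrichment of the 69 peaks found in all 4 day 0 lists, KO line 1 (red) and KO line 2 (blue) against the mean of the 2 WT libraries; 1 point per peak and line, dashed line at equality. Values from separate lists share no scale; the highest point is 17.1 in line 2.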

How the data were processed

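Files were 20 broad-peak lists of 9 columns, each called on its own library. The genome build was GRCm38, per the submitters' processing notes; aligner, peak caller, control and filters are not given in the sources used here. Per the labels' protocols, reads were single-end and Drosophila chromatin was added as a spike-in, which was not used for scaling here. The fold enrichment of each peak is a ratio deposited by the authors, used to describe and rank each library's own peaks. Significance was deposited by the authors as −log10 of p and of q, and q served as an alternative filter. The score column deposited by the authors was not used. Depth is unknown for all libraries.

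Overlapping peaks on the assembled chromosomes were merged, and cover was computed over RefSeq gene bodies (GRCm38.p6, 19304 protein-coding genes of at least 2 kb). Where genes overlap, a peak was counted for all of them. Strand, known for 15328 genes, came from the RefSeq promoter table. Cover was fitted with limma 3.58.1 (trend and robust, R 4.3.3) in 12 libraries, 10 WT in 5 pairs and the 2 KO libraries, after a filter of 5% mean cover at day 0. BH-adjusted p-values under 0.05 were called. Intervals and the fit were tested on simulated data, where the share of false calls of the fit came out above the 5% that the adjusted threshold sets. That held for the size of change first drawn and for the larger one then used, so calls near the threshold are less certain than their adjusted p-values read. Library values were compared by a two-sided exact permutation test (scipy 1.17.1).

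Named genes are the 10 with the highest cover and 5 with the most covered kb in line 1, the 5 highest by each in line 2, the 5 longest genes with at least 90% in WT and 0 in both lines, up to 5 called higher per line, Setd2 and list members; other genes higher in line 1 were named after their values were seen, as were Plec, Ubr4, the border genes and the 3 promoters. The comparison, members and lists were chosen with earlier results of these data known. Alternatives changed the q filter, peak width, merging, cover limits, gene length, low-cover filter, scale, samples in the fit and WT replicates.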

Additional observations from a re-analysis of the deposited data

Results flagged for a closer look

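The difference from WT was not the same in both KO lines at 842 genes by the limma contrast of the lines (9.46% of 8898 tested), with line 1 above line 2 at all of them. The filter on low cover leaves out genes covered mainly in line 2, and with no filter line 1 was below line 2 at 125 genes and above it at 1016. Each line has 1 library, which was assumed to vary like the WT pairs, and the covered length of line 1 is above that of line 2 by 3.23 on the log2 scale. The part of depth in this was not tested.

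Cxcl12 was called higher in line 1 and lower in line 2: its cover was 54.0% and 54.2% in WT, 65.0% in line 1 (10.8 points above WT, limma adjusted p = 0.0366) and 0 in line 2, and the lines differed by 65.0 points (limma adjusted p = 4.77e-05). The call as higher was lost in 7 of 9 alternatives, with limma adjusted p from 0.00204 to 0.857 over the 9, so a rise in line 1 is not established. In the later libraries of line 1 it had 69.4% (day 1) and 67.5% (day 5) with control medium and 3.32% and 86.1% with restriction, and in the later WT libraries 2.90% to 28.4%.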

How the results depend on the processing

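The losses in both lines kept their direction under all alternatives run. With the −log10 q filter at 3, the difference from WT in covered length (log2) moved to −4.80 (line 1) and −8.96 (line 2), in number of peaks to −3.62 and −6.55, and in median width to −1.24 and −2.30. With peaks of at least 500 bp, covered length moved to −3.59 and −7.23, number to −2.34 and −5.56, and the width of line 2 to −0.88. The number of marked genes and of kept genes in line 1 followed the limit: 748 and 735 at 25% cover, 35 and 35 at 75%, 133 and 132 at a −log10 q of at least 3, and 326 and 322 with peaks up to 1 kb apart merged. Line 2 had 1 marked gene, Olfr808 (0 in WT), with no minimum length. Among genes that overlap no other protein-coding gene, an alternative added after seeing the data, 164 were kept in line 1.

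Counts of lower genes stayed within 1.5 times. Genes higher in line 1 numbered 387 and in line 2 209 with no filter on low cover, 0 and 0 at a mean cover of at least 20%, 3 and 0 at a −log10 q of at least 3, and 5 with the KO lines as 1 group. In line 2 they numbered 1 with only the 4 day 0 libraries, 5 with no minimum length and 5 with merging over 1 kb. Genes higher in line 1 than in line 2 numbered 551 with only the 4 day 0 libraries, 2217 on the arcsine square root scale and 215 at a −log10 q of at least 3. Genes lower in line 1 than in line 2 numbered 125 with no filter and 2 with merging over 1 kb. The cause of these changes was not tested.

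The share of bases inside WT peaks was 77.9% (line 1) and 1.84% (line 2) for peaks of both WT libraries, and 89.8% and 7.01% at a −log10 q of at least 3. Without 1 WT replicate it was 78.8% to 79.8% and 2.68% to 2.96%, genes higher in line 2 numbered 5 to 6, genes higher in line 1 21 to 23, and genes lower in line 1 than in line 2 1 in both cases. For named genes, 510 of 538 alternative values were on the same side of the threshold, and 0 reversed where either value was called. Differences without a call could change sign: Col1a2 in line 1 was at 0.29 points in the main fit and −3.97 points without WT replicate 2. With only the 4 day 0 libraries, which leaves 1 residual degree of freedom, Eef1a1, Slc38a2, Csf1, Rpl3 and Scd2 were called lower and Aebp1 higher in line 1. The call on Ubb in line 2 was lost in 4 settings, among them without WT replicate 1 (limma adjusted p = 0.118). No paired analysis was possible because each KO line has 1 library at day 0 and shares fewer than 2 replicate numbers with WT.

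Peak lists show where peaks were called, not the amount of the mark. Depth is unknown, so a gene listed at 0 had no peak in the lists used here, whose completeness was not tested, and absence of the mark is not shown.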

Other observations

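In 11 WT-marked genes tested by limma, cover in KO line 1 reached that of the lower WT library. They were Col1a2, Aebp1, Col3a1, Zfp330, Lox, Vps35, Smarca5, Tmem106b, Clec2d, Cxcl12 and Aqp5, a set chosen after its values were seen. Smarca5, a chromatin remodelling ATPase, had 92.7% and 66.0% in WT and 70.7% in line 1. Vps35, a subunit of the retromer, had 84.3% and 69.5% in WT and 71.2% in line 1. The WT libraries spread widely at Smarca5 (SD 18.9 points, n = 2), and all 11 but Clec2d, Cxcl12 and Aebp1 were between the WT libraries in line 1. All 11 were at 0 in line 2.

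Peaks of line 1 outside WT peaks were most frequent on chromosome 8 (686 of 6087), and those of line 2 on chromosomes 1 and 15 (397 each of 3430). Chromosome X held 37 of them in line 1. The counts were not scaled by chromosome length or by all peaks of a library, so concentration on a chromosome was not tested.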
